A study of Mus musculus with 12 samples.

Results

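The cells described here came from samples of SCC35 lines and carried at least 2 UMIs (unique molecular identifiers, each standing for 1 captured mRNA molecule) of Wfdc2. They were kept by a gate on 7 other conditions. It works by exclusion, and whether each single cell came from the line was not tested. The gate required no UMI of Akr1c18, Ptprc, Cd3e or Krt5, at most 1 UMI of Tyrobp, at most 1 of Mki67 and Top2a together and at most 1 of Iigp1, Gbp2, Igtp and Ifit3 together. It therefore left out most immune cells, cycling cells, interferon-activated cells and keratinocytes. Of 116375 cells assigned to a tumour, 42573 passed the gate, and 2031 of these were members. The members were selected on their Wfdc2 count, so Wfdc2 in the members is a description and carries no test. The reference cells were the 39371 gate cells with no Wfdc2 UMI, called Wfdc2-zero cells. The remaining 1171 gate cells had exactly 1 Wfdc2 UMI.

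The study followed mouse tumours grown from SCC35 lines in which Mif, the gene of the cytokine macrophage migration inhibitory factor, had been knocked out (lines 19 and 24, labelled Mif KO) or not (lines 15 and 18, labelled Mif KO control). A WT line was present in the second mixed library and is described only. Cells were taken at day 0, 6, 10 or 16, were marked with hashtag antibodies and were sorted as live cells before 5′ single-cell RNA sequencing. Each of the 4 lines had a library of its own with hashtags lettered A and B, and 2 mixed libraries held further hashtags, lettered C, of several lines. A tumour below is 1 hashtag of 1 library, and counts of tumours include the day 0 samples. The hashtag sheet gave 47 of these, and 2 held no assigned cell (line 18, day 0, B and line 24, day 6, B), which left 21 control, 21 Mif KO and 3 WT tumours. The labels do not say which tumours came from separate animals, so p-values measure the spread between hashtagged samples. Each line is listed under its number without saying whether it is 1 clone, and line is nested in genotype. How the control lines were made is not known from the labels.

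Wfdc2 encodes a small secreted protein of the whey acidic protein family, also known as HE4. It is known from the epithelium of airway, salivary gland and epididymis and as a serum marker of ovarian carcinoma. Krt8 and Krt18 encode the keratin pair that forms the intermediate filaments of simple epithelia. Ecrg4, which encodes a secreted peptide precursor, was named with Wfdc2 and Krt18 as a marker of these cells when they were proposed from results of the same data.

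The 6 libraries held 151385933 to 239699029 gene UMIs. They held 176381 barcodes. Among the 116375 assigned cells, 7201 barcode sequences occurred in 2 or more libraries, and 14659 cells carried such a sequence. Of the 2031 members, 255 carried a barcode that was also an assigned cell of another library. A single barcode was shared by members of different libraries. Mif checked the labels: its summed level in Wfdc2-zero cells was 2286 CPM (UMIs of the gene, scaled to the total UMIs of the summed cells) in line 15 and 2150 CPM in line 18, against 175 CPM in line 19 and 637 CPM in line 24. Residual Mif in line 19 members was 42.2 to 69.2 CPM in the 6 tumours of its own library and 156 to 186 CPM in the 3 tumours of the first mixed library, which also held control cells.

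Most members were cells of line 19. It held 1946 of the 2031 members (95.8%), 1937 of them from days 6 to 16. Line 15 held 43, line 18 held 16, line 24 held 12 and the WT line held 14. No tumour outside line 19 had more than 12 members, and 14 of the 45 tumours had none. In the largest of those 14, line 18 day 16 B with 3499 gate cells, a count of 0 allows a share of up to 0.0857% of cells with 2 or more UMIs. This does not limit the cells that express Wfdc2, since 7 single Wfdc2 UMIs were seen there at a median depth of 3475 UMIs. Wfdc2 was also present outside the gate: 4985 assigned cells had at least 2 Wfdc2 UMIs, and 2316 of these failed the cycling condition and 851 the interferon condition. In line 19, Wfdc2 stood at 205 CPM in cells with 2 or more Mki67 and Top2a UMIs and at 182 CPM in the others. In cells with an Akr1c18 UMI it was 72.1 CPM, against 201 CPM without one.

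In line 19, Wfdc2 was low at day 0 and high in every later tumour. The Wfdc2 level of all gate cells, chosen without regard to Wfdc2, was 4.05 and 9.26 CPM in the 2 day 0 samples. Day 0 samples of all lines nearly lacked immune cells, with a Ptprc UMI in 0.322% to 2.90% of cells against 6.35% to 34.2% later. At day 6 it was 139, 126 and 62.1 CPM in tumours A, B and C. At day 10 it was 314, 235 and 228 CPM, and at day 16 it was 319, 150 and 169 CPM. The day means were 109 ± 41.2 CPM at day 6, 259 ± 47.7 at day 10 and 212 ± 92.4 at day 16 (SD, n = 3 each). The later tumours did not overlap with day 0, whereas days 10 and 16 overlapped with each other.

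No tumour of another line came near these levels. Over days 6 to 16 the mean was 193 ± 86.7 CPM in line 19 (SD, n = 9). It was 5.95 ± 3.46 CPM in line 15 (n = 9), 3.60 ± 2.30 in the WT line (n = 3), 1.87 ± 3.16 in line 18 (n = 9) and 1.80 ± 1.32 in line 24 (n = 8). The highest of the 29 tumours of other lines was at 13.0 CPM and the lowest tumour of line 19 at 62.1 CPM. The ranges of lines 15, 18, 24 and WT overlapped.

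**Figure D1:**
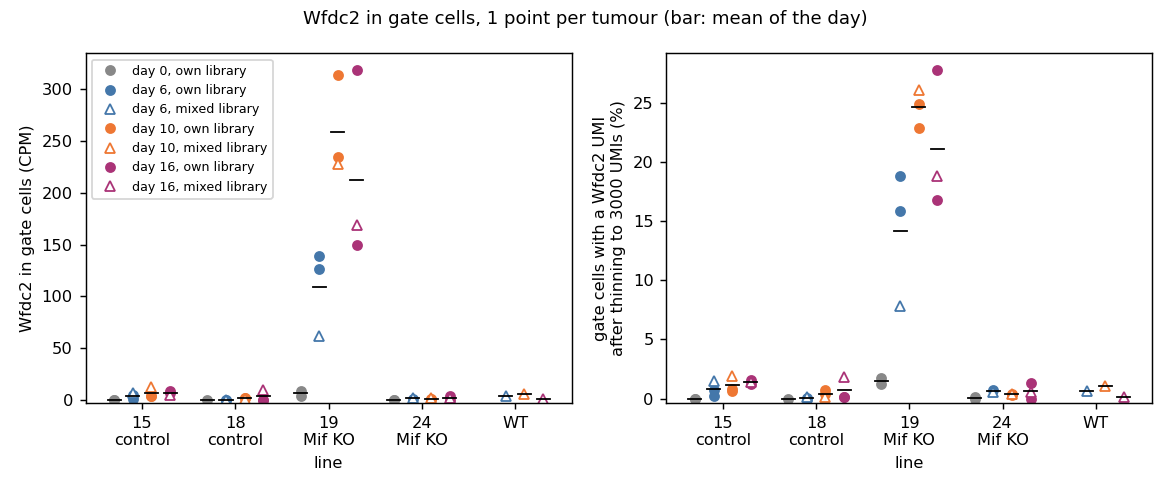
Left, Wfdc2 in all gate cells of each tumour, in CPM, by line; right, the share of gate cells with a Wfdc2 UMI after each cell was thinned to 3000 UMIs, in percent. Points are tumours coloured by day, open triangles are mixed libraries, and bars are day means; the 9 later tumours of line 19 lie between 62.1 and 319 CPM, above the 29 later tumours of the other lines, whose highest is 13.0 CPM.

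The share of members among gate cells of line 19 was 0% and 1.21% in the 2 day 0 samples. Over days 6 to 16 it was lowest in day 6 C at 5.25% (95% Wilson interval 4.17 to 6.59) and highest in day 10 A at 24.0% (22.0 to 26.2), and these intervals cover counting error only. Because deeper cells reach 2 UMIs more easily, each cell was also thinned to 3000 UMIs. The thinned share of gate cells with any Wfdc2 UMI was 7.87% to 27.8% in the 9 tumours of line 19 over days 6 to 16. It was at most 1.94% in the other lines.

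Genotype and line could not be told apart. Over tumours, the thinned share was 8.92% ± 10.6 in Mif KO (SD, n = 21) and 0.644% ± 0.660 in control (n = 21), a difference of 8.27 percentage points (two-sided permutation test, p = 0.0009, adjusted p = 0.0045 over 5 share tests). Line 19 alone carried it: without line 19 the difference was -0.216 points (permutation p = 0.350). Over the 4 line means, the exact permutation test gave p = 0.667, and the smallest p it allows is 0.333. Within the mixed libraries the difference was 7.90 points (exact permutation p = 0.162, n = 6 and 6).

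Differences of that size were also seen within 1 library. In the first mixed library, line 19 had 17.6% ± 9.18 (SD, n = 3) and lines 15 and 18 had 1.65% ± 0.258 (n = 4), with no overlap. The exact two-sided permutation test gave p = 0.0571, the smallest it allows (adjusted p = 0.119 over the 5 tests). In the own library of line 19, days 6 to 16 had 21.2% ± 4.77 (n = 6) and day 0 had 1.47% ± 0.334 (n = 2), again with no overlap and with the smallest possible exact p of 0.0714 (adjusted p = 0.119). Day 16 (21.2% ± 5.86, n = 3) and day 6 (14.2% ± 5.69, n = 3) of line 19 overlapped (exact permutation p = 0.3, adjusted p = 0.375, smallest possible p 0.1). The unthinned share of members did not overlap, at 13.8% to 23.1% against 5.25% to 13.6% (exact permutation p = 0.1). Wfdc2 in gate cells did not overlap either, at 150 to 319 CPM against 62.1 to 139 CPM.

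The edgeR model on summed gate cells gave the same picture per gene. Wfdc2 was higher in Mif KO than in control by 4.87 ± 0.69 on the log2 scale (adjusted p = 5.9e-07), in a comparison that called 38.3% of 12170 genes (19.9% higher and 18.4% lower). Without line 19 it was -0.96 (adjusted p = 0.182), and with 1 sum per line it was 4.56 (adjusted p = 0.656). Over all lines, days 6 to 16 exceeded day 0 by 4.59 ± 0.56 (adjusted p = 9.0e-09), where 51.8% of 12328 genes passed (27.0% higher and 24.7% lower). Without line 19 it was 4.06 (edgeR adjusted p = 0.0054), but the other lines lay near the floor. At day 0, gate cells of lines 15 and 18 had 0 Wfdc2 UMIs, and those of line 24 had 2, in sample B. The mixed libraries held no day 0 sample, so day and library were not fully separated. Within the own library of line 19, days 6 to 16 exceeded day 0 by 4.86 ± 0.58 (adjusted p = 0.00023, 30.5% of 12084 genes called, 16.4% higher and 14.1% lower). Genes that also rose there from day 0 were Tmem37 by 5.93, Ly6e by 4.24, Aldoc by 4.15, Fgfbp1 by 4.04, Cldn9 by 3.98, 2200002D01Rik by 3.92, Krt8 by 3.73, Mfng by 3.28 and Krt18 by 1.11. Tnnt2 at 1.29 (adjusted p = 0.194), Ecrg4 at 0.96 (adjusted p = 0.146) and Tigit at 0.24 (adjusted p = 0.466) did not pass. Of 8 fibroblast markers tested there, 7 rose and none fell, with a median of 4.78, and their part in these changes was not tested. In gate cells, as in any sum over cells, more cells that carry a gene and more RNA per cell cannot be told apart.

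Immune-like cells (at least 1 Ptprc and 2 Tyrobp UMIs), which should lack Wfdc2, gave the background for each library. In the first mixed library a Wfdc2 UMI was seen in 3.49% of immune-like cells hashtagged as line 15 and 3.10% of those of line 18. The gate cells of the same hashtags had 2.78% and 2.39%, at median depths of 5555 and 4072 UMIs against 4137 and 4095 in the immune-like cells. The gate cells of lines 15 and 18 in that library were therefore at or below background. Of the Wfdc2 UMIs in these immune-like cells, 59.1% lay in 3 cells of line 15 and 50.6% in 2 cells of line 18. The source of these UMIs was not tested. In the own library of line 15 the shares were 1.69% of gate cells and 0.102% of immune-like cells. For line 18 they were 0.268% and 0.230% in its own library and 0.212% and 0.528% in the second mixed library. For line 24 they were 0.424% and 0.115%, and 0.623% and 0.294%, in the same order. The WT line had 0.903% and 0.298%.

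In line 19 the background was higher, and in day 6 A and B its level was near that of gate cells. Immune-like cells of day 6 A and B had Wfdc2 at 134 and 149 CPM, against 139 and 126 CPM in gate cells, and their thinned shares were 14.8% and 12.2%, against 18.9% and 15.9%. In the other 7 later tumours immune-like cells were at 23.1 to 125 CPM, below the gate cells of the same tumour. In the own library of line 19, 27.9% of gate cells and 10.4% of immune-like cells had a Wfdc2 UMI, and after thinning the shares were 21.6% and 11.5%. Of the Wfdc2 UMIs in those immune-like cells, 63.9% lay in 29 cells with 10 or more. In the first mixed library the line 19 shares were 21.3% of gate cells and 4.84% of immune-like cells. Doublets within 1 tumour share a hashtag and were not removed, and their part was not tested.

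The few members of the control lines had Mif near the level of their own line. It stood at 2655 CPM in the 43 members of line 15 and 2227 CPM in the 16 members of line 18, against 87.8 CPM in those of line 19. The 12 members of line 24 had Mif at 1246 CPM, from 96 UMIs, above the 637 CPM of line 24 Wfdc2-zero cells. Krt18 was 434 CPM in the line 15 members and 159 CPM in line 15 Wfdc2-zero cells, 369 against 81.4 CPM in line 18, and 649 against 32.0 CPM in line 24. These sums rest on 205, 54 and 50 Krt18 UMIs. Of the 16 line 18 members, 12 came from day 16 C of the first mixed library, where gate cells of line 18 were at or below background, and no control tumour had the 20 members needed to enter a test.

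Wfdc2 lies on chromosome 2, at chr2:164562413-164568510 on the plus strand (GRCm38, GENCODE M21), in a cluster of whey acidic protein genes. Within 100 kb of it the annotation places 14 other protein-coding genes, and 10 of these were under 1 CPM in line 19 gate cells. Another, Gm20458, had no row in the counts and was not measured. Its nearest family members Wfdc6a, Eppin and Wfdc8 had 0 UMIs, against 17274 Wfdc2 UMIs. The expressed neighbours were Sys1 at 59.2 CPM, Pigt at 54.0 CPM and Dbndd2 at 41.6 CPM. These levels come from 5′ counts and are not per length.

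The members went against the name epithelial-like. Of 36 genes of simple epithelium, 16 had no UMI in the 1937 line 19 members of days 6 to 16, 29 were under 1 CPM and 3 reached 10 CPM. Krt19 and Cdh1, which encodes the adhesion protein E-cadherin, had 0 UMIs among 20137631, which allows up to 3 UMIs in all. The adhesion protein gene Epcam had 3 UMIs. The genes above 10 CPM were Krt18 at 772 CPM, Krt8 at 61.0 CPM and Jup, which encodes the junction protein plakoglobin, at 11.6 CPM. Vim, the mesenchymal intermediate filament gene, stood at 12415 CPM in the members and 12227 CPM in Wfdc2-zero cells.

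Markers of several other cell types were low. Of 15 melanocyte genes, 7 had no UMI in members, among them Tyr, Tyrp1 and Dct, the pigment enzyme genes, and the summed level was 11.8 to 18.7 CPM. The 10 keratinocyte markers summed to 1.36 to 3.53 CPM, with Krt1, Krt10, Dsg3, Lor and Dsc3 at 0. Of 8 mesothelial markers, 6 were at 0, including Wt1 and Upk1b. Single genes of other lists were high in both groups. Msln, which encodes mesothelin, was at 128 CPM in members and 114 CPM in Wfdc2-zero cells, and Plvap, on the endothelial list, at 212 and 267 CPM. The 10 mammary gland markers summed to 79.4 to 149 CPM in members and 95.5 to 177 CPM in Wfdc2-zero cells, with 5 at 0 in members and Areg, the growth factor gene amphiregulin, at 104 and 132 CPM. The cells are therefore called Wfdc2-positive line cells below.

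Within tumours, members were compared with Wfdc2-zero cells of the same tumour. All 9 tumours of line 19 from days 6 to 16 had enough cells, with 69 to 392 members each, and no other tumour did. Members were deeper, with a median of 9606 UMIs against 6221 in Wfdc2-zero cells and 2893 against 2255 genes detected. Of 11201 genes tested, 3740 passed an adjusted p of 0.05 (33.4%), of which 1854 were higher (16.6%) and 1886 lower (16.8%), with a median log2 fold change of -0.02. With Wfdc2-zero cells drawn to the depth of members, 912 of 10423 passed (8.75%; 4.45% higher and 4.3% lower). This version kept 1906 members and as many of the 8769 Wfdc2-zero cells, so its counts rest on fewer cells. Without the 3 day 10 tumours 2073 passed, and with the 3 mixed-library tumours alone 1409.

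Wfdc2-zero cells also carried more transcripts of host cell types. Members had less of the fibroblast, macrophage and T and NK cell lists in 9 of 9 tumours. The summed T and NK markers were 1.52 to 7.94 CPM in members and 8.64 to 46.8 CPM in Wfdc2-zero cells, and macrophage markers 18.7 to 151 CPM and 37.4 to 278 CPM. Fibroblast markers summed to 509 to 713 CPM and 523 to 1035 CPM, with Gsn at 626 and 581 CPM the main part of both. At matched depth 0 of 9 tested macrophage markers were lower, with 1 higher and a median of 0.08, and no T or NK marker could be tested. Of 6 fibroblast markers tested at matched depth 5 were still lower and none higher, with a median of -3.66. Endothelial markers were 211 to 314 CPM and 211 to 439 CPM, lower in members in 8 of 9 tumours, with Plvap the main part of both. Of 8 tested, 5 were lower and none higher, with a median log2 fold change of -1.71. The other 3, Cdh5, Flt1 and Egfl7, were at 0.03, 0.03 and 0.12 and did not pass. At matched depth 2 of 5 endothelial markers were lower and none higher, with a median of 0.13. A second version of the comparison, added after the values were seen, left out every cell with a UMI of Xist, Dcn, Lum, Pdgfrb, Fcer1g, Lyz2, Pecam1, Cdh5, Dpt or Pi16. It is called host-reduced below and called 2770 of 10615 genes (26.1%; 14.9% higher and 11.2% lower). It removed 15.6% to 31.9% of the members and 18.1% to 37.2% of the Wfdc2-zero cells of a tumour, and more members than Wfdc2-zero cells in day 16 B (26.9% and 22.4%). Host markers were not all removed. The T and NK genes Cd3d, Cd3g and Nkg7 were still lower in members, at -2.20, -4.42 and -2.004. So were 3 of 6 tested macrophage markers (Ctss -1.33, C1qc -0.97 and C1qb -0.79). Other lists went the other way or were split. Of 3 endothelial markers tested host-reduced, 2 were higher in members and 1 lower, with a median of 0.27. The 1 pericyte marker tested was higher at 0.77, and of 2 fibroblast markers 1 was higher and 1 lower. Over all cells Xist was 2.17 ± 2.15 CPM in members and 23.6 ± 7.99 CPM in Wfdc2-zero cells, lower in 9 of 9 tumours. Mif was also lower in 9 of 9 tumours, at -0.78 over all cells and -0.29 host-reduced (edgeR adjusted p = 0.0029). Host-reduced, Mif in Wfdc2-zero cells was 122 CPM in line 19 and 600 CPM in line 24, against 2437 and 2230 CPM in lines 15 and 18.

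Among the 11 genes with the largest rises, Krt8, Fgfbp1, Cldn9 and Tmem37 had the largest, and Krt18 was among the smaller ones. Krt8 was 36.2, 55.0 and 81.1 CPM in members of day 6 A, B and C, 36.1, 38.6 and 119 CPM at day 10, and 19.3, 70.7 and 88.7 CPM at day 16. In Wfdc2-zero cells the 9 values ran from 1.17 to 15.7 CPM. Members were higher in 9 of 9 tumours and their lowest value lay above the highest of the Wfdc2-zero cells. Of all genes tested, 0.964% did not overlap in this way, 0.116% with members higher and 0.848% with members lower, and 4.5% were higher and 7.87% lower in 9 of 9 tumours. The log2 fold change was 3.47 ± 0.15 (SE; adjusted p = 5.4e-20), and 3.31 at matched depth and 3.73 host-reduced.

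Krt18 showed a smaller difference at a higher level. It was 712, 784 and 1069 CPM in members at day 6, 825, 809 and 706 CPM at day 10, and 676, 804 and 704 CPM at day 16. Wfdc2-zero cells had 470, 529 and 404 CPM, then 547, 550 and 423 CPM, then 293, 357 and 341 CPM. Every member value exceeded every Wfdc2-zero value. The mean was 788 ± 119 against 435 ± 94.9 CPM (SD, n = 9), with a log2 fold change of 0.91 ± 0.06, given without a p because Krt18 was proposed as a marker from these data. The share of cells with a Krt18 UMI was 79.2% ± 3.33 against 55.8% ± 6.47 after thinning to 3000 UMIs (93.4% and 59.4% unthinned; 28 members and 2211 Wfdc2-zero cells were too shallow). Krt8 and Krt18 are neighbours on chromosome 15, at chr15:101996698-102004482 on the minus strand and chr15:102028180-102032027 on the plus strand, with starts 23698 bases apart (GRCm38).

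Cldn9, which encodes the tight junction protein claudin 9, was 33.5, 78.7 and 71.4 CPM in members at day 6, 61.3, 62.7 and 121 CPM at day 10 and 70.3, 78.3 and 83.3 CPM at day 16. Wfdc2-zero cells had 6.65 to 43.2 CPM. The groups overlapped through day 10 C, where Wfdc2-zero cells were highest, but members were higher in 9 of 9 tumours. The log2 fold change was 1.96 ± 0.11 (edgeR adjusted p = 5.6e-17), 1.79 at matched depth and 1.90 host-reduced.

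Fgfbp1, which encodes a secreted carrier protein of fibroblast growth factors, was 22.1, 23.1 and 21.1 CPM in members at day 6. It was 89.5, 50.8 and 56.3 CPM at day 10 and 59.3, 73.0 and 27.9 CPM at day 16. Wfdc2-zero cells had 2.61 to 17.2 CPM, all below the lowest member value. The log2 fold change was 2.38 ± 0.09, with 2.56 at matched depth.

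The other 7 genes of the 11 were also higher in 9 of 9 tumours. Tmem37, which encodes a small membrane protein related to calcium channel gamma subunits, was 37.4 ± 13.1 CPM in members and 12.4 ± 8.02 in Wfdc2-zero cells (SD, n = 9). Ly6e, a GPI-anchored surface protein gene, was 371 ± 149 and 178 ± 59.4 CPM. Tigit, best known as an inhibitory receptor gene of T and NK cells, was 92.5 ± 14.3 and 48.5 ± 14.2 CPM, while the T cell gene Cd3d was at 0.47 and 4.09 CPM. The gate required no Cd3e or Ptprc UMI in either group, so a low Cd3d level was partly set by the rule.

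Tnnt2, the cardiac troponin T gene, was 34.0 ± 18.1 CPM in members and 17.6 ± 10.9 CPM in Wfdc2-zero cells, and Aldoc, an aldolase gene of glycolysis, 31.8 ± 16.9 and 17.1 ± 9.45 CPM. Mfng, a glycosyltransferase gene that modifies Notch receptors, and the uncharacterised 2200002D01Rik had log2 fold changes of 0.83 and 1.27. Leaving aside Krt18, all 10 passed the test in the same direction host-reduced, at matched depth, in the own library and in the mixed library. These versions reuse the tumours in which the 10 were chosen, so they are no independent check.

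**Figure D2:**
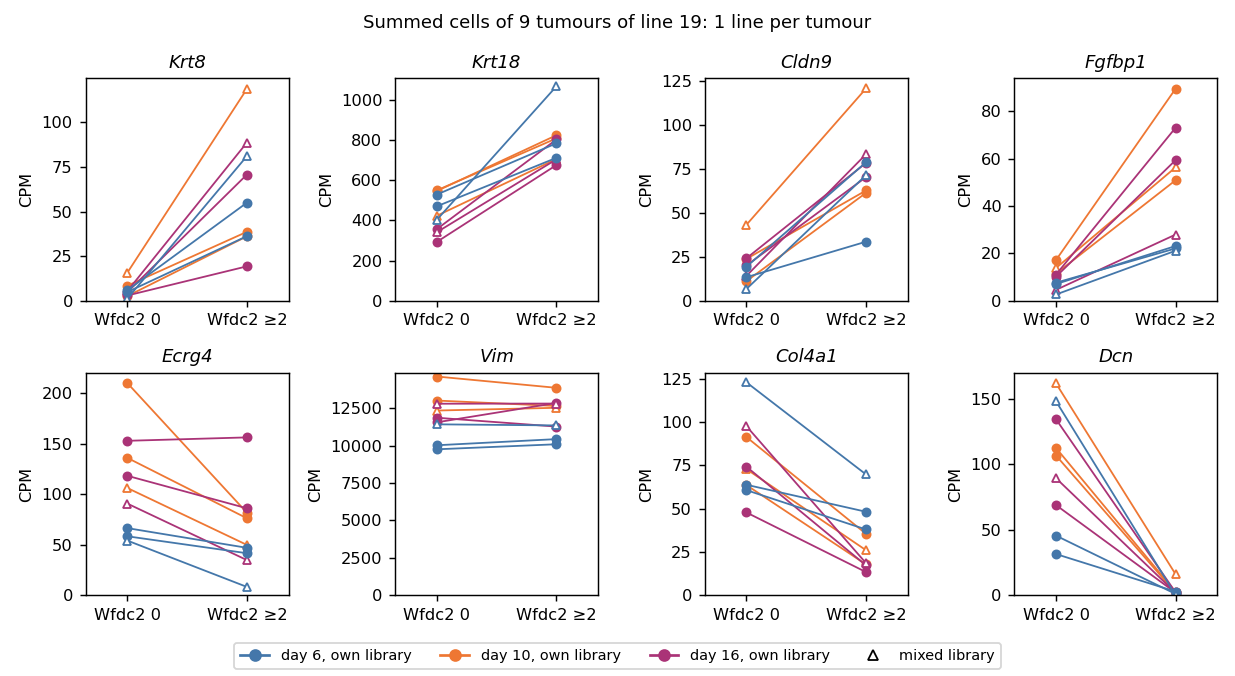
Level of 8 genes in summed Wfdc2-zero cells and in members (Wfdc2 at 2 or more UMIs) of each of the 9 line 19 tumours of days 6 to 16, in CPM on a linear axis from 0; 1 line per tumour, coloured by day, triangles for the mixed library. Krt8, Krt18, Cldn9 and Fgfbp1 rise in all 9 tumours, Ecrg4 falls in 8, Vim shows no common direction and Dcn falls to 15.9 CPM or less.

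Ecrg4 did not mark these cells. It was 41.5, 46.8 and 8.11 CPM in members at day 6, 76.1, 81.6 and 49.7 CPM at day 10 and 156, 85.9 and 34.7 CPM at day 16. Wfdc2-zero cells had 58.2, 66.3 and 54.0 CPM, then 136, 210 and 106 CPM, then 153, 118 and 90.6 CPM. Members were lower in 8 of 9 tumours, at 64.5 ± 42.4 against 110 ± 50.8 CPM (SD, n = 9), a log2 difference of -0.75 ± 0.10. At matched depth the difference was -0.01, and with the gate set on thinned counts -0.22. The share of cells with an Ecrg4 UMI was 8.04% ± 3.37 in members and 11.3% ± 3.62 in Wfdc2-zero cells after thinning, lower in 9 of 9 tumours, and 12.9% and 12.8% before it.

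Of the 12 largest falls, Dcn and Lum were on the fibroblast marker list. Tagln and Acta2, which encode smooth muscle cytoskeletal proteins, had log2 fold changes of -6.33 and -4.33. Dcn and Lum, which encode the matrix proteoglycans decorin and lumican, were at -4.62 and -5.52. Dcn was 0 to 15.9 CPM in members and 31.4 to 162 CPM in Wfdc2-zero cells, with no overlap. Postn, Tnc, Fbln2, Fstl1 and Col12a1, genes of matrix or secreted proteins, were at -5.13, -4.83, -4.502, -4.52 and -4.18. Tnfaip6, Timp3 and Crabp1 were at -5.12, -4.68 and -4.28.

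Host-reduced, 5 of these 12 could still be tested, and 2 passed: Acta2 at -1.05 (adjusted p = 0.0206) and Col12a1 at -1.01 (adjusted p = 0.0147). Postn was at -0.65 (adjusted p = 0.121), Timp3 at -0.83 (adjusted p = 0.0823) and Crabp1 at -0.09 (adjusted p = 0.851). At matched depth all 12 fell.

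**Figure D3:**
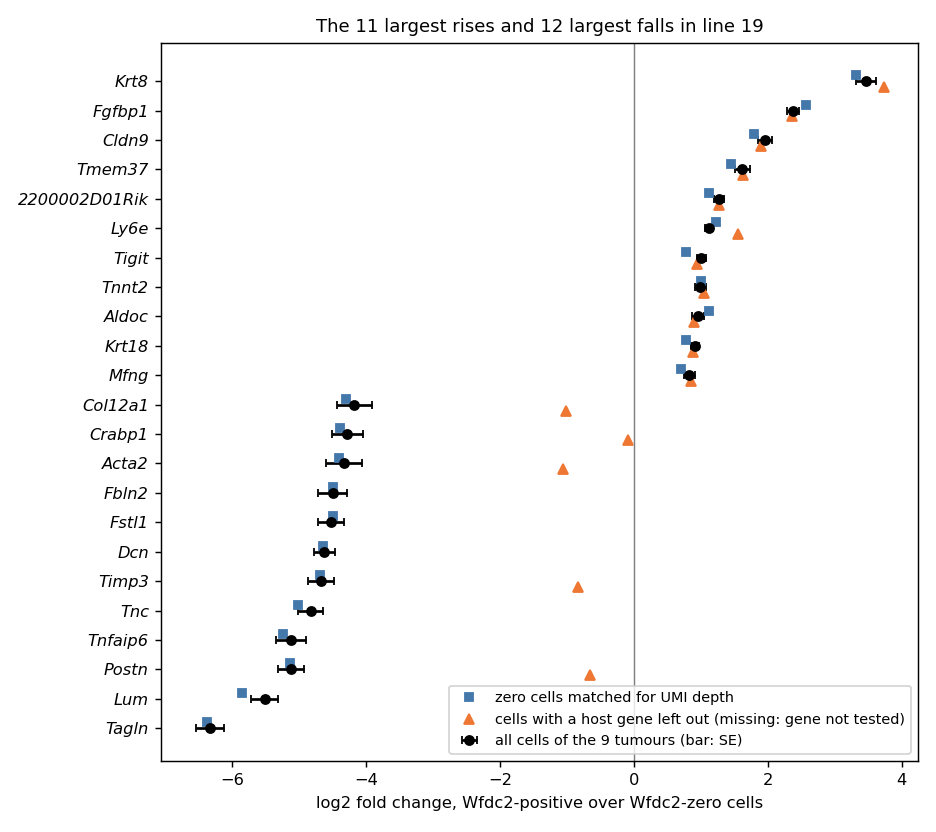
Log2 fold change of members over Wfdc2-zero cells within 9 line 19 tumours for the 11 largest rises and 12 largest falls. Black points with bars are the estimate ± SE over all cells, blue squares use Wfdc2-zero cells matched for depth and orange triangles leave out cells with a host gene (missing where the gene was not tested). The rises stay between 0.70 and 3.73 in all versions, while the 5 falls that remain testable without host-gene cells lie between -1.05 and -0.09.

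Host-reduced, the same rule named another 12 lower genes, a list added after the values were seen. Col4a1 and Col4a2, which encode the basement membrane collagen chains, had log2 fold changes of -1.11 and -1.08. Over all cells Col4a1 was 13.3 to 69.7 CPM in members and 47.8 to 123 CPM in Wfdc2-zero cells, and was lower in 9 of 9 tumours. Serpine2, a secreted protease inhibitor gene, was at -1.20 and Apod, a secreted lipid carrier gene, at -2.53.

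Aspn, the proteoglycan gene asporin, was at -1.05, and Hmox1, the haem oxygenase gene, at -0.90. Chrdl1, a BMP antagonist gene, and Mgst1, a microsomal glutathione transferase gene, were both at -0.79. Cilp2 was at -0.88, and the nuclear RNAs Neat1 and Malat1 at -0.91 and -0.81. Cd74, which encodes the MHC class II invariant chain and MIF receptor, was at -1.02 and completed the 12 falls. The part of the macrophage markers that remained was not tested. At matched depth 11 of the 12 fell, some by much less: Malat1 was at -0.30, Neat1 at -0.31, Aspn at -0.41, Cilp2 at -0.41 and Apod at -1.52. Cd74 was at -0.09 (adjusted p = 0.751).

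Gene lists of known function were then counted, and each count over all cells stands against the 16.6% higher and 16.8% lower of all genes tested. Counts at matched depth stand against 4.45% and 4.3%, and host-reduced counts against 14.9% and 11.2%. Of the 36 simple epithelial genes 6 could be tested. Krt8 and Jup rose, as did Krt18, which was proposed as a marker from these data and is no independent member of the count. None fell, and the median log2 fold change was 0.75 with Krt18 and 0.60 without it, the value of Ocln. Jup was 10.7 ± 3.91 CPM in members and 4.79 ± 1.02 CPM in Wfdc2-zero cells (SD, n = 9), higher in 9 of 9 tumours (1.25 ± 0.15, edgeR adjusted p = 1.7e-08). Ocln, Pkp2 and Cldn12, other junction genes, were at 0.60, 0.03 and 0.24 and did not pass. Krt8 and Jup also rose at matched depth and host-reduced.

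Of the 21 genes of whey acidic and other secreted inhibitors 12 were tested, with 3 higher, 7 lower and a median of -0.24. The chaperone gene Clu rose by 0.43 and was 109 ± 46.4 against 84.4 ± 45.6 CPM. Lcn2, the lipocalin 2 gene, rose by 1.02, at 2.04 to 35.9 CPM in members with day 10 B the highest, and Timp1 rose by 0.20. Slpi, a whey acidic protein family gene like Wfdc2, was nearly absent at 0.38 and 2.22 CPM. At matched depth 2 of 11 rose and 3 fell.

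Mesenchymal genes were mostly lower, with 15 of 23 lower, 2 higher and a median of -0.51. Host-reduced this was 8 lower and 4 higher of 20, with a median of -0.22. At matched depth it was 13 lower and 1 higher of 23, with a median of -0.40. Twist2 and Thy1 fell over all cells, to -1.09 and -3.50, but host-reduced they were at 0.11 (adjusted p = 0.74) and -0.07 (adjusted p = 0.92). Zeb1 fell to -0.51 over all cells, but was at -0.21 host-reduced (edgeR adjusted p = 0.38) and -0.16 at matched depth (adjusted p = 0.70). Col1a1 and Col1a2, the type I collagen genes, rose host-reduced by 0.40 and 0.29, whereas Col1a2 was at -0.84 over all cells. Zeb2, a repressor of epithelial genes, fell in both, to -0.57 and -0.48, and Prrx1 to -0.28 and -0.23. Fn1, the fibronectin gene, was at -0.36 in both and was at -0.07 at matched depth (adjusted p = 0.522).

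Vim did not pass the test at 0.05 ± 0.03 (adjusted p = 0.0947). It was 11990 ± 1257 CPM in members and 11940 ± 1506 CPM in Wfdc2-zero cells, and its sign turned at matched depth (-0.07). Snai1, Snai2, Twist1 and Cdh2, which are classical mesenchymal genes, were at -0.27, -0.14, -0.02 and 0.03 and did not pass.

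Proteoglycan genes were lower in 7 of 7 and host-reduced in 3 of 4 (Aspn, Omd and Ogn), and Bgn, at -2.55 over all cells, was then at 0.12 (adjusted p = 0.46). At matched depth 5 of 6 proteoglycan genes were lower. Complement genes were lower in 5 of 6, host-reduced in 2 of 4 and at matched depth in 3 of 4. Of the 13 MHC class I genes 12 were lower with a median of -0.37, 10 host-reduced and 4 at matched depth, where B2m was at -0.15. Of the 14 interferon genes 10 were lower with a median of -0.37, 8 host-reduced and 2 (Irf7 and Isg15) at matched depth. The gate had removed cells high in interferon genes from both groups.

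Cells with Mki67 or Top2a had been gated out of both groups, apart from those with 1 UMI of the pair. Of 12 cell cycle genes 8 rose and 2 fell, with a median of 0.32. The helicase genes Mcm2, Mcm3, Mcm5 and Mcm6 rose by 0.64, 0.60, 0.53 and 0.48, and the cyclin E gene Ccne1 by 0.73. At matched depth 3 rose (Mcm2, Mcm3 and Mcm6), the cyclin D gene Ccnd1 fell (-0.15) and 8 did not pass. Of 13 p53 targets none rose and 6 fell, among them Cdkn1a, the cell cycle inhibitor gene p21, at -0.45 (-0.48 at matched depth). At matched depth 4 of the 13 fell and Gdf15, a stress cytokine gene, rose by 0.79. Hypoxia and glycolysis genes were split, with 4 higher and 3 lower of 14, and TGF-beta response genes were 1 higher and 6 lower of 14. For the TGF-beta list the balance turned at matched depth, with 3 higher and 1 lower of 13, and was 2 and 2 of 13 host-reduced.

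**Figure D4:**
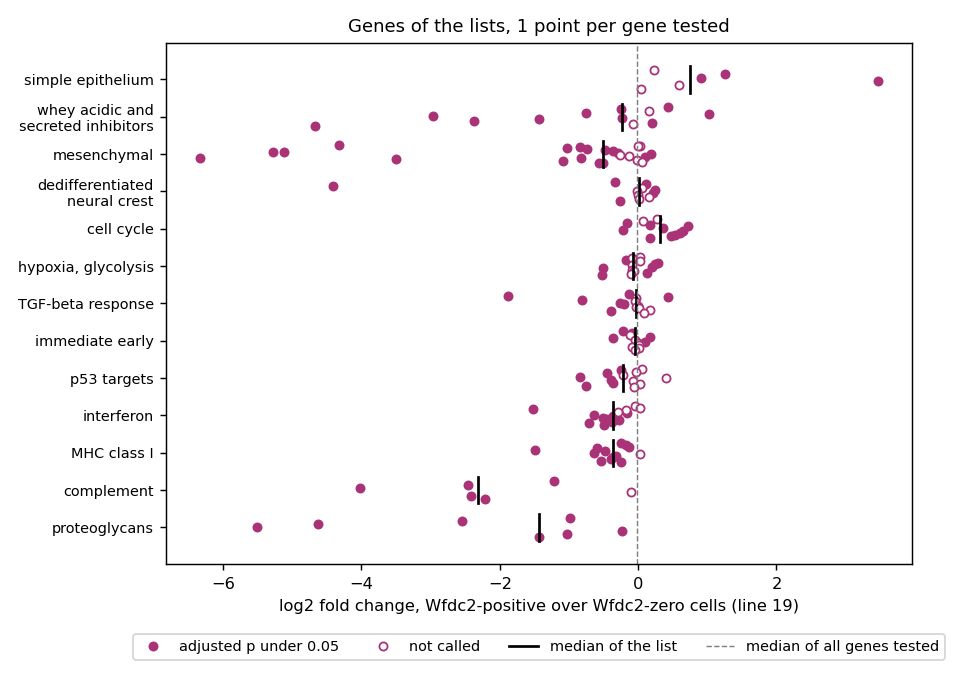
Log2 fold change of members over Wfdc2-zero cells for each tested gene of 13 lists; filled points passed an adjusted p of 0.05, open points did not, black bars are list medians and the dashed line is the median of all genes tested (-0.02). The simple epithelial list has the highest median (0.75 with Krt18, which was proposed from these data; 6 of 36 genes tested), and the complement (-2.32) and proteoglycan (-1.43) lists the lowest.

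The level of Krt18 rose at each step of the Wfdc2 count of the cell, and that of Krt8 at all but 1. Krt18 was 435 ± 94.9 CPM in cells with no Wfdc2 UMI, 603 ± 102 with 1, 667 ± 160 with 2, 734 ± 170 with 3 to 4, 799 ± 117 with 5 to 9 and 911 ± 126 with 10 or more (SD, n = 9 tumours). Fgfbp1 rose over the same steps from 9.48 ± 4.55 to 77.3 ± 36.1 CPM and Ly6e from 178 ± 59.4 to 510 ± 207 CPM. Krt8 was 5.73 ± 4.29 CPM at 0, 14.0 ± 20.5 at 1, 27.3 ± 31.8 at 2, 48.7 ± 34.4 at 3 to 4, 41.4 ± 41.6 at 5 to 9 and 125 ± 100 at 10 or more. Neighbouring steps of Krt18 and Krt8 overlapped within 1 SD. Ecrg4 had no order, at 110, 86.4, 53.3, 86.0, 55.6 and 64.8 CPM.

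Cells just outside and just inside the threshold, with 1 and with 2 Wfdc2 UMIs, had Krt18 at 603 and 667 CPM, Cldn9 at 39.0 and 74.0 CPM and Fgfbp1 at 23.1 and 27.3 CPM. The median depth rose with the Wfdc2 count, from 6221 UMIs at 0 and 8081 at 1 to 11097 at 10 or more, so the count is not a measure of level alone. Serpine2 stepped down between 0 and 1, from 77.9 ± 52.1 to 33.2 ± 26.5 CPM, and stayed at 26.5 to 38.7 CPM above that. Vim was between 11364 and 12545 CPM at every step.

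**Figure D5:**
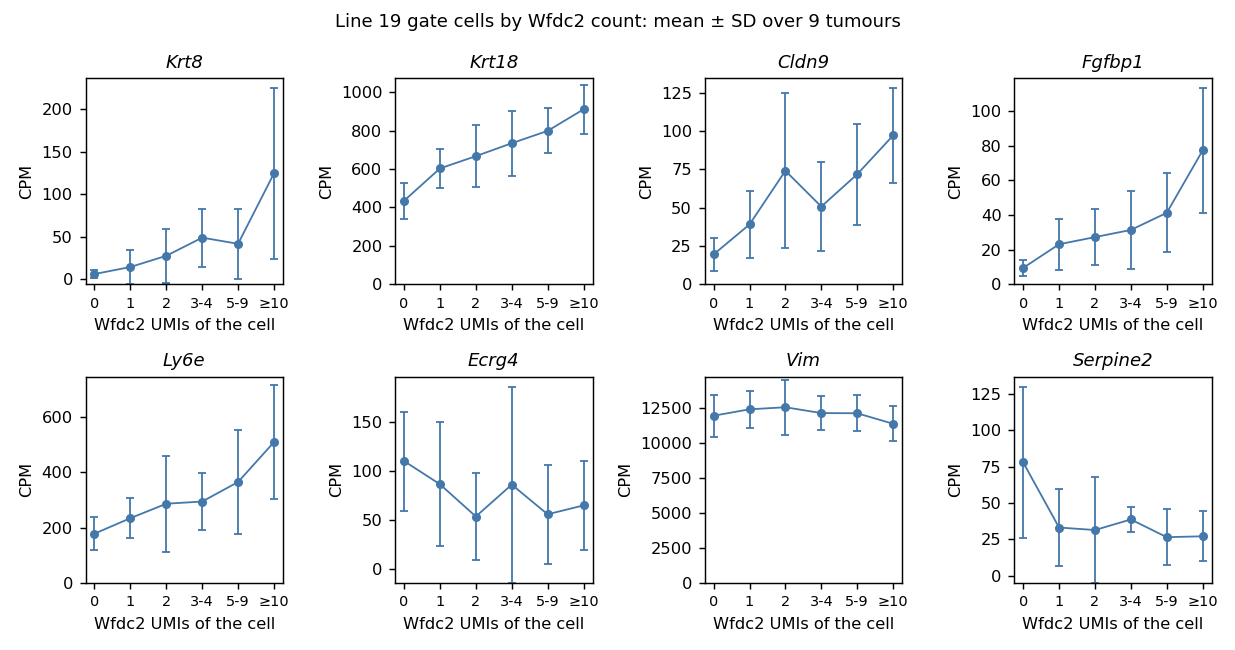
Mean ± SD over 9 line 19 tumours of 8 genes, in CPM, by the number of Wfdc2 UMIs of the cell (0, 1, 2, 3 to 4, 5 to 9, 10 or more). Krt18, Fgfbp1 and Ly6e climb from the lowest to the highest step, Krt8 is highest at 10 or more, Vim is nearly level and Ecrg4 has no order.

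Krt8 was detected in few members, at a depth where a cell without a UMI may still express it. It was detected in 218 of 1937 members (11.3%), with a median of 3 and a highest count of 45 UMIs in these cells. The share averaged over tumours was 10.7% in members and 1.57% in Wfdc2-zero cells, and 7.10% ± 3.29 and 0.964% ± 0.585 after thinning.

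Members with and without Krt8 had like depth, with medians of 9802 and 9587 UMIs. Those with Krt8 had Krt18 at 1045 ± 268 CPM against 753 ± 115 CPM (SD, n = 9 tumours) and Ly6e at 752 ± 227 against 323 ± 139 CPM, each higher in 9 of 9 tumours. Tmem37 was 67.5 ± 25.4 against 33.7 ± 12.7 CPM, also higher in 9 of 9, and Cldn9 126 ± 49.6 against 66.2 ± 22.1 CPM, higher in 8. Wfdc2 itself was 1116 ± 332 against 732 ± 147 CPM. Vim was higher in 1 of 9 tumours, at 10750 ± 1773 against 12136 ± 1210 CPM. These splits were made after the values were seen and carry no test.

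Members at day 16 differed from members at day 6, and the same fit was not run on Wfdc2-zero cells. Of 9983 genes tested in line 19, 581 passed (5.82%), 282 of them higher at day 16 (2.82%) and 299 lower (3.0%). Interferon genes were lower at day 16 in 13 of 14, with a median log2 fold change of -1.34 against -0.01 for all genes, within cells gated to be low in 4 other interferon genes. Of 8 macrophage markers tested in the same comparison, 3 fell and none rose, with a median of -1.23, and their part was not tested. Isg15, a ubiquitin-like interferon-induced gene, was 275, 208 and 156 CPM in members at day 6 and 58.8, 36.9 and 38.7 CPM at day 16. The days did not overlap, and the log2 fold change was -2.28 ± 0.17 with an edgeR adjusted p of 4.4e-08.

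Irf7 was at -1.40, Ifi27l2a at -2.54 and the chemokine gene Ccl5 at -2.59 on the log2 scale. Ccl5 rested partly on day 6 A at 160 CPM, with 31.9 and 13.0 CPM in the other day 6 tumours. Of 13 MHC class I genes 4 fell and 1 rose, with a median of -0.058. The immunoproteasome genes Psmb9, Psmb10 and Psmb8 and the peptide transporter gene Tap1 fell, at -1.25, -1.06, -0.60 and -1.004, and the heavy chain gene H2-D1 rose by 0.30.

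Higher at day 16 were Ptn, a heparin-binding growth factor gene, by 3.43 ± 0.44, Sncg, the gamma-synuclein gene, by 2.63 ± 0.31 and Dkk2, a Wnt antagonist gene, by 2.07 ± 0.33. Sncg was 3.53, 10.2 and 8.11 CPM at day 6 and 46.3, 43.0 and 61.7 CPM at day 16. Pmepa1, a TGF-beta-induced gene, was 48.5, 46.1 and 73.0 CPM and 181, 157 and 148 CPM. The groups did not overlap for either gene. Of 14 hypoxia and glycolysis genes 6 rose and none fell, with Egln3, an oxygen-sensing hydroxylase gene, up by 0.97 and Car9, the carbonic anhydrase gene, by 0.82.

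Some of the genes described above moved with day in members and others did not pass. Ecrg4 rose by 1.38 ± 0.26 (edgeR adjusted p = 0.0031), Fgfbp1 by 1.28 ± 0.27, Aldoc by 1.33 ± 0.26 and 2200002D01Rik by 1.30 ± 0.18. Krt8 was at 0.00 ± 0.29, Krt18 at -0.25 ± 0.11 and Cldn9 at 0.27 ± 0.21, none past the test. Col4a1 was at -1.66 ± 0.26 and Fn1 rose by 1.05 ± 0.20.

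The difference between members and Wfdc2-zero cells was itself compared between days 16 and 6. It passed for 9 of 11201 genes (0.0803%; 0.00893% higher and 0.0714% lower at day 16), with 760 at an unadjusted p below 0.05, and for 2 genes with DESeq2. None of the interferon list genes, Ptn, Sncg, Dkk2 or Pmepa1 was among the 9. Their changes with day are therefore not shown to be particular to members. For Col4a1 the change of the difference was -1.52 ± 0.20 on the log2 scale (edgeR adjusted p = 3.9e-05). Members had 37.9, 48.2 and 69.7 CPM at day 6 and 17.2, 13.3 and 18.5 CPM at day 16, whereas Wfdc2-zero cells had 60.7, 63.8 and 123 CPM and 74.2, 47.8 and 97.6 CPM. The days did not overlap in members and overlapped in Wfdc2-zero cells.

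Fn1 and Serpine2 differed in the same direction, by -0.50 ± 0.08 and -1.25 ± 0.25. Fscn1, the actin-bundling gene fascin, was the one gene with a higher difference at day 16, by 0.64 ± 0.12. It was 95.7 to 100 CPM in members and 106 to 124 CPM in Wfdc2-zero cells at day 6, and 90.0 to 115 CPM and 71.6 to 86.7 CPM at day 16. The others were Hspb1, Plvap, H19, Tnn and Col12a1. Col12a1 in members was 19.7 CPM in day 6 B and 0 to 4.06 CPM in the other 8 tumours. For Krt8, Krt18 and Cldn9 the day difference was -0.10 ± 0.42, 0.31 ± 0.11 and -0.18 ± 0.30, none past the test.

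Members of Mif KO and control tumours could not be compared at 20 cells a tumour. At 10 cells, 2 control tumours entered with 11 and 12 members against 9 tumours of line 19. The 12 members were those of line 18 day 16 C, where gate cells were at or below background. Then 32 of 10050 genes passed in members, 21 of them higher in Mif KO, with 953 at an unadjusted p below 0.05. The difference between members and Wfdc2-zero cells passed for 31 of 11449 genes, 18 of them higher, with 858 at an unadjusted p below 0.05. Line and genotype cannot be told apart in either count.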

How the data were processed

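For 6 libraries the authors deposited matrices of unnormalised UMI counts (32285 gene rows), made with Cell Ranger 6.0.0 against mm10 per the submitters' processing notes, and a sheet pairing hashtags with line, day and letter. Kits and sorting are per the labels' protocols. No source used here gives the alignment settings or how cells were called.

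Cells were kept with at least 300 genes, at most 15% mitochondrial UMIs, and a top hashtag of at least 20 counts and 3 times the second. The members, lists and rule were chosen with earlier results of these data known. UMIs were summed per tumour and class (at least 20 cells) and tested with edgeR 4.0.16 (R 4.3.3; filterByExpr, TMM, quasi-likelihood test, Benjamini-Hochberg over all genes tested, threshold 0.05), with the tumour as a block within tumours and with genes of the gate left out. DESeq2 1.42.0 and RLE factors were alternatives. Log2 fold changes are edgeR's, and CPM are a gene's summed UMIs scaled to all UMIs of the same cells. Shares were tested over tumours by permutation (100000 resamples, or exact). Intervals are 95% and cover counting error only. No doublet caller was run beyond hashtags. Only the within-tumour fit was tried on simulated data, and its outcome is not given here.

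Named genes were the 12 largest changes each way past the threshold with mean logCPM of at least 4 and the same sign in at least 80% of tumours, plus Wfdc2, Krt18, Ecrg4, Krt8, Krt19, Epcam, Cdh1, Slpi, Clu, Vim, Fn1, Mif and Xist. For days and interactions the rule named up to 6 or 4 each way, Sncg and Pmepa1 among them. Not all genes it named are described, and list members were added. The planned comparisons of members between genotypes, of members with day 0, and both planned interactions could not be fitted at 20 cells a sum, as no control tumour had 20 members and line 19 at day 0 had 9. Day 16 against day 6 in line 19 took their place. Of the 12 largest rises, 1 is not reported here.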

Additional observations from a re-analysis of the deposited data

Results flagged for a closer look

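Of 92 groups of 8 or 9 tumours tested for a value far from the others, 13 had one. Several of these values rest on few UMIs and some tumours recur, so the count is not set against a chance rate. In line 18 over days 6 to 16, tumour day 16 C of the first mixed library had Wfdc2 at 10.0 CPM in gate cells (next highest 2.44) and a thinned share of 1.80% (next 0.682). That library also held line 19, and 3.10% of its line 18 immune-like cells had a Wfdc2 UMI.

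Among the 9 line 19 tumours, Wfdc2-zero cells of day 10 C stood apart for Krt8 at 15.7 CPM and Cldn9 at 43.2 CPM, and those of day 6 C for Col4a2 at 64.2 CPM. Members of day 6 C stood apart for Krt18 at 1069 CPM. Members of day 6 B were high in Postn at 10.9 CPM, Fbln2 at 12.2 CPM and Col12a1 at 19.7 CPM. Members of day 10 C were high in Dcn at 15.9 CPM and Fstl1 at 5.31 CPM, those of day 6 A in Acta2 at 14.1 CPM and those of day 16 A in Apod at 18.2 CPM.

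For 4 named genes the difference between members and Wfdc2-zero cells itself differed between days 16 and 6 by edgeR's interaction test: Fn1 by -0.50, Serpine2 by -1.25, Col4a1 by -1.52 and Col12a1 by -3.87 on the log2 scale.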

How the results depend on the processing

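For 43 named genes under 22 alternatives, 919 of 932 values kept their direction and side of the threshold, 9 were weaker, 2 stronger and 2 reversed. The 919 include alternatives, named below, that refit the same sums and so could not differ. Where an alternative could not test a gene, no value was counted. Fn1 and Clu did not pass without the tumour block (-0.34, adjusted p = 0.121, and 0.45, adjusted p = 0.113). Vim passed with RLE factors (0.064, adjusted p = 0.046) and at 10 cells a sum (0.095, adjusted p = 0.0086), and it was the gene that turned (-0.069 at matched depth and -0.033 with the gate on thinned counts). The count of genes within tumours (3740) was 912 at matched depth, 1545 with the gate on thinned counts, 1409 in the mixed library alone and 2073 without day 10 (3656 without day 6 and 2613 without day 16); the cause was not tested. Without the tumour block it was 2755 and with DESeq2 2540. The genotype difference in share (8.27 points) was 7.90 in mixed libraries (exact permutation p = 0.162) and ranged from -0.216 without line 19 to 15.99 without line 24. In all gate cells the Wfdc2 log2 difference (4.87) was 3.88 in mixed libraries (adjusted p = 0.119), 4.56 with 1 sum per line (adjusted p = 0.656), and -0.96 without line 19 to 5.79 without line 15. The 9 genes of the day interaction were 2 with DESeq2; the cause was not tested. Leaving out line 15, 18 or 24, adding WT tumours or keeping days 6 to 16 only left the within-tumour fit the same, as only line 19 tumours enter it. Asking for at least 50 cells a sum also kept the same tumours. No within-tumour fit was possible without line 19 or at day 0.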
